A study of Mus musculus with 10 samples.

Results

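The semaphorin and ephrin guidance genes of mouse hepatic stellate cell cultures were measured after exposure to amphiregulin. They comprise the semaphorins, their plexin and neuropilin receptors, the ephrins and the Eph receptors. Members were the protein-coding genes whose mouse symbols carry the names of these families, which gave 53 of the 36047 genes matched in the files. The 28 ligand genes were 20 semaphorins and 8 ephrins, and the 25 receptor genes were 9 plexins, 2 neuropilins and 14 Eph receptors. The study sequenced poly-A RNA of cells labelled as quiescent hepatic stellate cells, the vitamin A-storing cells of the liver sinusoid, from male C57BL/6 mice. After 5 h in culture, cells spent 4 h in starving medium, either with 500 ng/mL of recombinant mouse amphiregulin (Areg, which activates the EGF receptor; 5 libraries) or without it (control; 5 libraries). Nothing in the labels ties the 5 libraries of a group to different mice or dishes. The p-values therefore rest on the spread among libraries, part or all of which may be technical.

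Semaphorins are secreted or membrane-bound ligands that bind plexins, mostly directly. Most of the secreted class 3 semaphorins first bind a neuropilin, which also serves as a co-receptor for vascular endothelial growth factors. Plexins signal to the cytoskeleton and to cell adhesion. Ephrins stay attached to the cell surface, ephrin-A by a lipid anchor and ephrin-B by a membrane span, and signal through Eph receptor tyrosine kinases on neighbouring cells. Both systems were first described in axon guidance and also shape blood vessels and other tissues.

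Total estimated counts were 14365027 to 20057962 in the Areg libraries and 10125184 to 17566891 in the control libraries. Controls 3 and 4 stood apart on the first principal component of all tested genes, at 50.1 and 29.96 against -17.4 to 0.21 for the other 8 libraries, and they were also the shallowest, with 10125184 and 10950603 counts. All 12 stellate cell markers of the list used were detected. Their summed level was 6475 to 6669 TPM (transcript abundance per length and depth) in Areg libraries and 6494 to 6880 TPM in control libraries. Most of that sum was Dcn, which averaged 5274 TPM with Areg and 5390 TPM in controls. The next highest stellate marker, Reln, averaged 354.6 TPM with Areg and 404.1 TPM in controls. Of these markers Lrat, Cygb, Lhx2 and Ngfr were lower with Areg (log2 fold change -0.47, -0.50, -0.32 and -0.33) and 8 were not called. Markers of sinusoidal endothelial cells were also abundant, with a summed level of 2492 to 2590 TPM in Areg libraries and 2507 to 2870 TPM in control libraries. None of the 8 endothelial markers, among them Cdh5 (adjusted p = 0.215), Lyve1 (adjusted p = 0.191) and Pecam1 (adjusted p = 0.718), passed the edgeR test, and none was at 0. Hepatocyte markers summed to 1358 to 1686 TPM in Areg libraries and 1292 to 1976 TPM in control libraries, and macrophage markers summed to 560.1 to 613 TPM in Areg libraries and 587 to 640.4 TPM in control libraries. None of the 8 macrophage markers and 1 of the 8 hepatocyte markers (Cyp2e1, log2 fold change 0.23, edgeR adjusted p = 0.0314) passed the test. Of 4 tested smooth muscle markers Tagln and Smtn were higher with Areg (log2 fold change 0.18 and 0.22), while Myh11 (0.15) and Acta2 (-0.18) were not called. Of 4 tested markers of portal fibroblasts and mesothelium Krt8 was higher (0.49) and Thy1, Msln and Gpm6a were not called (-0.01 to 0.30). Of 4 tested cholangiocyte markers Spp1 was higher (1.05), while Sox9 (0.54), Krt7 (-0.22) and Krt19 (-0.77) were not called. These calls varied with the fit. Leaving out controls 3 and 4 gave 4 stellate markers and 1 endothelial marker lower. It also gave 2 hepatocyte, 2 cholangiocyte and 2 smooth muscle markers higher. With a smooth dependence on transcript length and GC content removed (described below), 3 stellate markers were lower. In that fit 1 endothelial, 0 hepatocyte and 3 smooth muscle markers were higher. With both changes, 3 hepatocyte markers were higher and 3 stellate markers lower. Lymphocyte and neutrophil markers summed to at most 3.49 TPM in any library. RNA of several liver cell types was thus present in all libraries. Endothelial cells are known to express Nrp1, Plxnd1, Efnb2 and Ephb4, and the part of each cell type or of these marker changes in the members' results was not tested. In bulk RNA, fewer cells of a type and less RNA per cell cannot be told apart.

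By level, the cultures held far more semaphorin than ephrin transcripts, and within each class a few members carried most of the signal. The 20 semaphorins summed to 541 ± 14.2 TPM in Areg libraries and 488 ± 27.2 TPM in control libraries (SD, n = 5 per group, here and below). Sema6d alone held 44.1% of the semaphorin TPM. The 9 plexins summed to 297 ± 13.1 TPM with Areg and 338 ± 31.0 TPM in controls, of which Plxna1 held 41.6%. The 2 neuropilins summed to 191 ± 3.32 TPM with Areg and 209 ± 19.6 TPM in controls, and Nrp2 held 73.2%. The 8 ephrins summed to 86.3 ± 2.92 TPM with Areg and 96.5 ± 2.98 TPM in controls, with Efnb2 at 37.0%. The 14 Eph receptors summed to 62.1 ± 2.22 TPM with Areg and 61.5 ± 5.35 TPM in controls, with Ephb4 at 50.8%. A mean of at least 1 TPM was reached by 34 members, and the other 19 lay below it.

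**Figure D1:**
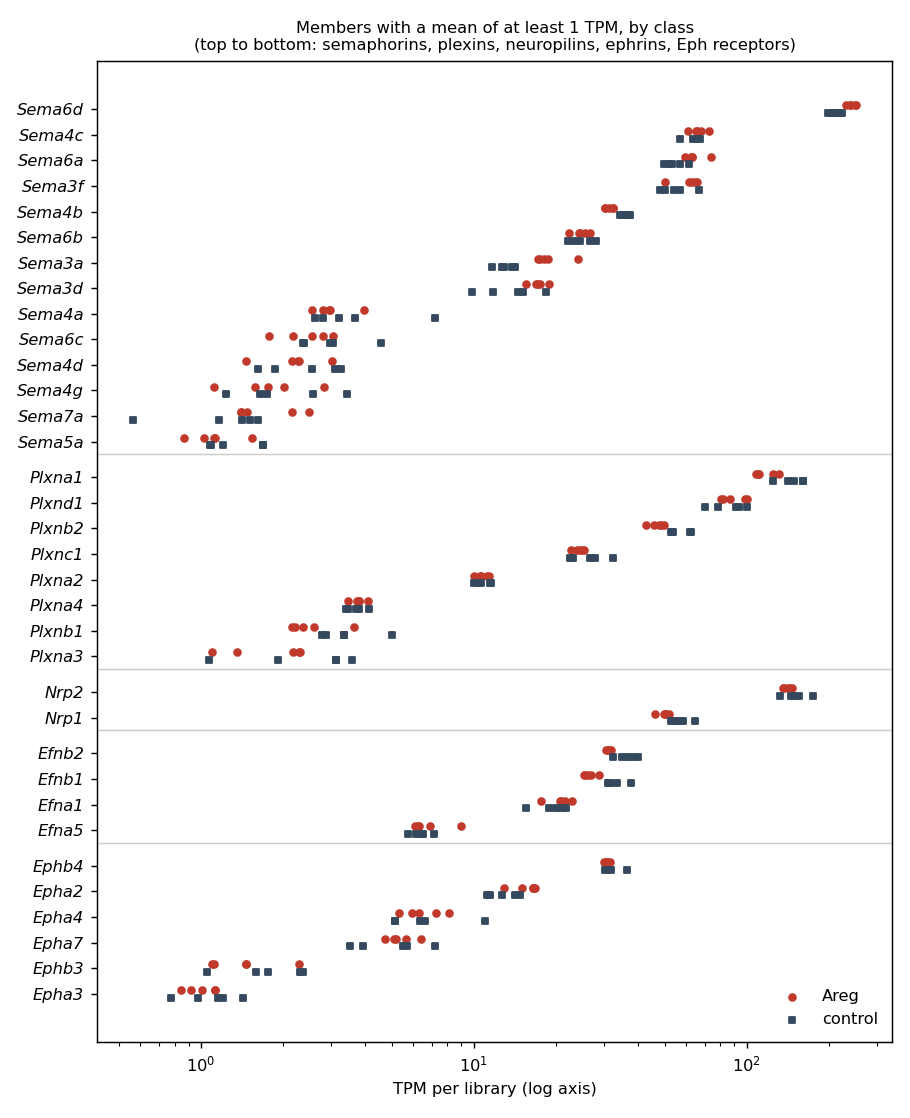
TPM per library on a log axis for the 34 members with a mean of at least 1 TPM, ordered by level within each class, with Areg libraries as red circles above control libraries as dark squares. Sema6d, Nrp2 and Plxna1 lie above 100 TPM in every library, and only a few members show groups that do not overlap.

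Counts per gene were compared between the groups by edgeR's quasi-likelihood test over all 13362 genes that passed a filter on low counts, with Benjamini-Hochberg adjustment over those genes. A gene was called at an adjusted p under 0.05, and fold changes are Areg over control. Among all tested genes 16.7% were called. Of the 53 members 40 passed the filter, and 11 of these were called (27.5%), 5 higher and 6 lower with Areg. The corresponding shares of all tested genes were 8.34% higher and 8.32% lower. In 8 tested members all Areg libraries lay on the same side of all control libraries in TMM-scaled CPM (counts scaled to library size), where 14.7% of all tested genes did so. The median log2 fold change of the 40 tested members was -0.02, and that of all tested genes was -0.01. Without controls 3 and 4, 11 members were called, 6 higher and 5 lower, where 15.9% of 13693 tested genes were called. In that fit the calls of Plxnb1 and Sema4b were lost, and Sema3f and Plxnc1 were gained. With a smooth dependence on length and GC content of transcripts removed from each library, the split became 11 higher and 1 lower, as described below, and that of all genes became 1124 higher and 695 lower against 1114 higher and 1112 lower.

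By role, 6 of 22 tested ligand genes were called, 4 higher and 2 lower, and 5 of 18 tested receptor genes, 1 higher and 4 lower. The class counts were 4 higher and 1 lower among 16 tested semaphorins, 0 and 3 among 8 plexins, 0 and 1 among 2 neuropilins, 0 and 1 among 6 ephrins, and 1 and 0 among 8 Eph receptors; with the length and GC dependence removed they were 8 and 0, 1 and 0, 0 and 1, 0 and 0, and 2 and 0 for the same classes. Whether ligands and receptors differ in these shares was not tested. The other 13 members had at most 10 estimated counts in any library and were not tested: Sema3b, Sema3g, Sema4f, Sema5b, Plxnb3, Efna3, Efna4, Epha1, Epha6, Epha8, Epha10, Ephb1 and Ephb6. Epha6 had 0 counts in all 10 libraries, and a count of 0 allows up to 0.15 CPM in the deepest and 0.296 CPM in the shallowest library (3 counts, counting error only).

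**Figure D2:**
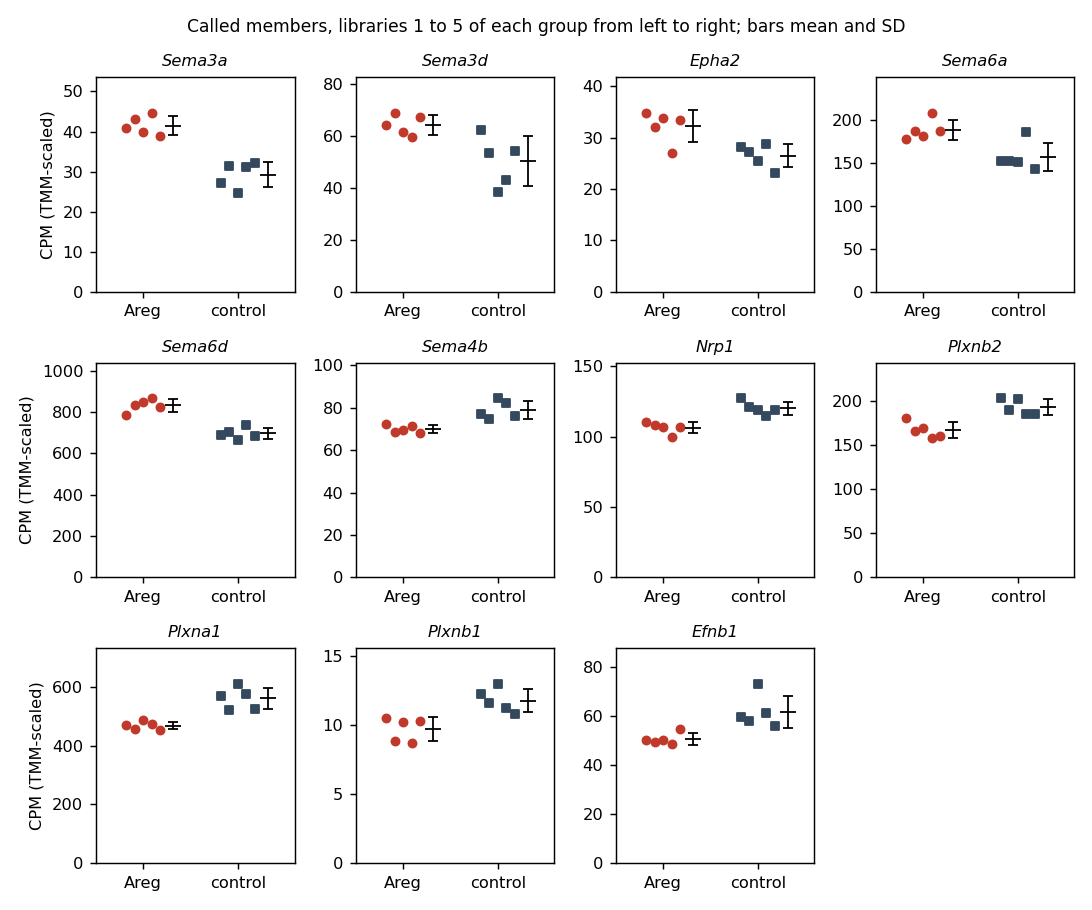
TMM-scaled CPM of the 11 called members in each library, Areg left of control, with bars for mean and SD. Sema3a and Sema6d show the groups apart on the higher side, Sema4b, Nrp1, Plxna1, Plxnb1, Plxnb2 and Efnb1 on the lower side, and Sema3d, Sema6a and Epha2 overlap. With the length and GC trend removed, the calls of Sema4b, Plxna1, Plxnb1, Plxnb2 and Efnb1 were lost and Sema4b stood at 0.003 on the log2 scale.

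Sema3a, the founding class 3 semaphorin, which binds Nrp1 and signals through A-type plexins, had the smallest p of the members. It lies on chromosome 5 (13125414 to 13602565, plus strand, GRCm38). Sema3a had 40.8, 43.2, 39.8, 44.7 and 38.9 CPM in Areg libraries 1 to 5, against 27.1, 31.3, 24.7, 31.1 and 32.1 CPM in controls 1 to 5. The lowest Areg library lay above the highest control. The gene rose 1.41-fold (log2 fold change 0.50, SE 0.07, edgeR adjusted p = 0.000339). The call held under all 24 alternatives, with log2 fold changes of 0.41 to 0.58.

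Most of the Sema3a signal came from annotated transcript forms that start close together, and their estimated levels did not move alike. Form Sema3a-202, which starts at base 13396784 of chromosome 5, had 8.91, 8.25, 9.18, 8.23 and 7.25 TPM in Areg libraries 1 to 5, against 6.05, 5.14, 3.14, 4.75 and 4.56 TPM in controls 1 to 5. Form Sema3a-201, which starts downstream at base 13399309, had 4.48, 5.05, 3.73, 4.92 and 4.73 TPM in Areg libraries, against 2.88, 4.45, 3.67, 4.61 and 4.51 TPM in controls. The groups did not overlap for Sema3a-202 and overlapped for Sema3a-201, a description chosen after the values were seen and without a test. The annotated start of the gene lies further upstream, at base 13125414, and its other forms are not described. The counting program divides reads between such forms by estimation.

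The promoter of Sema3a-202 is shown because that form carried the largest share of Sema3a TPM (40.7%). RefSeq's start on GRCm38.p6 coincides with that of Sema3a-202, and the window runs from 250 bases before to 50 bases after it (chr5:13396534-13396833, plus strand).
Sema3a: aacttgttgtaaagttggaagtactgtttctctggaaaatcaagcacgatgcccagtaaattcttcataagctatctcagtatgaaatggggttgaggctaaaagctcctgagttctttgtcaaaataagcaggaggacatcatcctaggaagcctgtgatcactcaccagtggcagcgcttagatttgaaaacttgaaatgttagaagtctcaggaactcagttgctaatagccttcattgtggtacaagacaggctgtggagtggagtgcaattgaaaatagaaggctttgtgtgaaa
Promoter windows were searched on both strands for TGAGTCA or TGACTCA (AP-1), GTGGGCG (Egr), CCGGAAG (Ets) and GGAATG (Tead), where the Ets and Tead letters can overlap. Among 32851 promoters of the RefSeq table these occurred in 5.20%, 7.97%, 8.86% and 14.7%. None of the 4 is in the Sema3a window, whose GC content is 41.3%, against a median of 60.3% over 10185 tested genes in the table.

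Sema3d, another secreted class 3 semaphorin, is also on chromosome 5 (12383385 to 12588948, plus strand). It had 64.2, 69.0, 61.7, 59.6 and 67.4 CPM in Areg libraries, against 62.4, 53.7, 38.7, 42.9 and 54.4 CPM in controls. Controls 3 and 4 were the lowest and control 1 lay within the Areg range. Sema3d rose 1.27-fold (log2 fold change 0.34, SE 0.10, edgeR adjusted p = 0.0370). The call was lost without control 4 or without Areg replicate 1, 2, 3 or 5 (adjusted p = 0.0578 to 0.0938). It was also lost without the filter on low counts (adjusted p = 0.0860), with a transcript length offset (adjusted p = 0.0810) and on the TPM scales (limma adjusted p = 0.184 and 0.186), and it held without controls 3 and 4 together at a smaller log2 fold change of 0.18 (adjusted p = 0.0412).

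Sema6d, a membrane-spanning semaphorin that binds Plxna1, was the most abundant member. It lies on chromosome 2 (124089969 to 124667770, plus strand). Sema6d had 787, 834, 848, 866 and 825 CPM in Areg libraries, against 690.1, 706, 667, 739 and 685 CPM in controls. All Areg libraries lay above all controls. It rose 1.19-fold (log2 fold change 0.25, SE 0.05, edgeR adjusted p = 0.00148), and this call also held under all 24 alternatives (0.20 to 0.31). The largest of its transcript forms, Sema6d-206, averaged 167 ± 8.19 TPM with Areg and 139.7 ± 8.63 TPM in controls.

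Sema6a, a related membrane-spanning ligand that binds Plxna2 and Plxna4, lies on chromosome 18 (47235598 to 47368870, minus strand). It had 178, 187, 181, 208 and 187 CPM in Areg libraries, against 152, 152, 151, 185 and 143 CPM in controls. Library 4 was the highest of each group, and control 4 lay within the Areg range. Sema6a rose (log2 fold change 0.26, SE 0.06, edgeR adjusted p = 0.0106). Among 24 alternatives this call failed only on the TPM scales (limma adjusted p = 0.0787 and 0.0796). Its receptors Plxna2 and Plxna4 had log2 fold changes of 0.01 and 0.06 and were not called (edgeR adjusted p = 0.959 and 0.593).

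Sema4b, a membrane-spanning class 4 semaphorin on chromosome 7 (80186841 to 80226527, plus strand), was the called semaphorin that fell. It had 72.5, 68.5, 69.5, 71.2 and 68.1 CPM in Areg libraries, against 76.9, 74.5, 84.3, 82.3 and 76.2 CPM in controls. The groups did not overlap, and controls 3 and 4 were the highest. The log2 fold change was -0.17 (SE 0.05, edgeR adjusted p = 0.0289). The call was lost without control 4 or without Areg replicate 2, 3, 4 or 5 (adjusted p = 0.0510 to 0.0805) and without controls 3 and 4 together (-0.12, adjusted p = 0.0824). It was also lost without the filter on low counts (adjusted p = 0.0864), with the length offset (adjusted p = 0.0703) and on the TPM scales (limma adjusted p = 0.0501 and 0.0508), and the value was 0.003 with the length and GC trend removed.

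Sema4c, a ligand of Plxnb2 and the second most abundant semaphorin, had 128, 130, 136, 119.6 and 119 CPM in Areg libraries, against 119, 125, 133, 122 and 110.1 CPM in controls. The groups overlapped and the gene was not called (log2 fold change 0.05, 95% interval -0.06 to 0.17, edgeR adjusted p = 0.553). Sema3f, which binds Nrp2, was not called either (log2 fold change 0.14, edgeR adjusted p = 0.202), but was called without controls 3 and 4 (0.25, edgeR adjusted p = 0.00757). Sema7a, a lipid-anchored semaphorin that binds Plxnc1, had 2.191 to 4.19 CPM in Areg libraries and 1.12 to 3.01 CPM in controls, a log2 fold change of 0.60 that missed the threshold (edgeR adjusted p = 0.0901). Sema7a was called without control 3, its highest control (0.73, edgeR adjusted p = 0.0443). Sema3e, a Plxnd1 ligand, had the largest fold change of the tested members at very low counts, 0.767 to 1.07 CPM with Areg and 0.201 to 0.966 CPM in controls (log2 fold change 0.87, SE 0.37, edgeR adjusted p = 0.112). Sema3e was called without control 5, its highest control (log2 fold change 1.32, edgeR adjusted p = 0.0227). Sema5a and Sema6c had log2 fold changes of -0.32 and -0.41 and adjusted p of 0.111 and 0.0846. The remaining tested semaphorins were Sema3c, Sema4a, Sema4d, Sema4g and Sema6b, with adjusted p of at least 0.251.

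Among the receptors, Plxna1, which serves class 3 semaphorins together with neuropilins and also binds Sema6d, lies on chromosome 6 (89316314 to 89362620, minus strand). It had 471, 458, 487, 472 and 454 CPM in Areg libraries, against 570.1, 522, 609.7, 577 and 524 CPM in controls. All Areg libraries lay below all controls. The log2 fold change was -0.26 (SE 0.05, edgeR adjusted p = 0.00247). With the length and GC trend removed it was -0.07 and not called (adjusted p = 0.185). In TPM the groups overlapped, with Areg libraries 3 and 4 at 131.3 and 125 TPM and control 2 at 124.5 TPM. Plxna1 was still called lower on the TPM scales (limma adjusted p = 0.0350 and 0.0354). The difference between Plxna1 and its ligand Sema6d was not itself tested.

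Plxnb2, the receptor of class 4 semaphorins such as Sema4c, lies on chromosome 15 (89155549 to 89180788, minus strand). It had 181, 167, 170.3, 158 and 161 CPM in Areg libraries, against 203, 191, 202, 186 and 185 CPM in controls. Every Areg value lay below every control value, and the log2 fold change was -0.21 (SE 0.05, edgeR adjusted p = 0.00801). With the length and GC trend removed Plxnb2 stood at -0.01 (adjusted p = 0.937). Plxnb1, the Sema4d receptor (chromosome 9, 109095389 to 109119917, plus strand), had 10.5, 8.81, 10.2, 8.69 and 10.2 CPM in Areg libraries, against 12.2, 11.6, 13.0, 11.3 and 10.8 CPM in controls. The groups did not overlap, but the call was marginal (log2 fold change -0.27, SE 0.09, edgeR adjusted p = 0.0485). It was lost without any 1 of the 10 libraries except control 5 (adjusted p = 0.0513 to 0.126 without the others), and also without controls 3 and 4 together (adjusted p = 0.1002). Other losses came without the filter on low counts (adjusted p = 0.111), with the length offset (adjusted p = 0.152) and on the TPM scales (limma adjusted p = 0.230 and 0.234). In TPM the groups overlapped.

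Plxnd1, which binds Sema3e, was the second most abundant plexin. It had 178, 176, 181, 180.2 and 164 CPM in Areg libraries, against 179.5, 165, 197, 195 and 150.4 CPM in controls, and the Areg range lay within the control range. Its log2 fold change was -0.01 (95% interval -0.15 to 0.13, edgeR adjusted p = 0.932). Plxnc1, the Sema7a receptor, had a log2 fold change of -0.13 (edgeR adjusted p = 0.148) and was called lower without controls 3 and 4 (-0.21, edgeR adjusted p = 0.00402). Plxna3 had a log2 fold change of -0.38 at 2.52 to 4.08 CPM with Areg and 3.14 to 5.17 CPM in controls (edgeR adjusted p = 0.120). It was called lower without control 2, its lowest control (-0.48, edgeR adjusted p = 0.0468).

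Nrp1, the receptor subunit that binds Sema3a, lies on chromosome 8 (128358604 to 128503363, plus strand). It had 111, 108, 107, 99.8 and 107 CPM in Areg libraries, against 127, 121, 119, 115 and 119 CPM in controls. The groups did not overlap, and Nrp1 fell by 0.18 on the log2 scale (SE 0.05, edgeR adjusted p = 0.0157). The call was lost without Areg replicate 4 (adjusted p = 0.0514), without the filter on low counts (adjusted p = 0.0602) and on the TPM scales (limma adjusted p = 0.0788 and 0.0800), and it held without controls 3 and 4.

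Nrp2, the partner of Sema3f, had 534, 557, 551, 576 and 529 CPM in Areg libraries, against 628, 588, 524, 588 and 563 CPM in controls. The groups overlapped, and Nrp2 was not called (log2 fold change -0.07, 95% interval -0.18 to 0.03, edgeR adjusted p = 0.342). The transcript form Nrp2-204 did not overlap between the groups, with 23.2, 24.9, 25.4, 20.4 and 17.1 TPM in Areg libraries, against 33.8, 31.6, 28.04, 28.9 and 25.9 TPM in controls. The most abundant form, Nrp2-202, overlapped, at 64.5 ± 2.63 TPM with Areg and 68.0 ± 7.64 TPM in controls. These forms were chosen after their values were seen, and their levels are estimates without a test.

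Among the ephrins, Efnb1, a membrane-spanning ligand of EphB receptors, lies on chromosome X (99136130 to 99148991, plus strand). It had 50.3, 49.4, 50.1, 48.5 and 54.7 CPM in Areg libraries, against 59.7, 58.1, 73.1, 61.4 and 56.0 CPM in controls. The groups did not overlap, and control 3 was the highest library. Efnb1 fell by 0.28 on the log2 scale (SE 0.07, edgeR adjusted p = 0.00973), and by 0.19 without controls 3 and 4. It was not called with the length and GC trend removed (-0.08, adjusted p = 0.301). Efnb2, the ligand of Ephb4 and the most abundant ephrin, had 89.1, 88.5, 87.4, 90.2 and 92.4 CPM in Areg libraries, against 98.8, 89.9, 89.8, 87.2 and 92.9 CPM in controls. The groups overlapped, and it was not called (log2 fold change -0.04, 95% interval -0.14 to 0.06, edgeR adjusted p = 0.643). On the length-adjusted TPM scale Efnb2 did not overlap, with 30.95, 30.4, 31.5, 30.9 and 31.9 TPM in Areg libraries, against 38.3, 35.0, 32.4, 39.9 and 36.8 TPM in controls. Its log2 fold change was -0.22 on both TPM scales (limma adjusted p = 0.0631 and 0.0644) and -0.20 with the length offset (edgeR adjusted p = 0.0538), outside that interval and not called. Efna1, a lipid-anchored ligand of Epha2, and Efna5 had log2 fold changes of 0.13 and 0.05 (edgeR adjusted p = 0.431 and 0.799), and Efna2 and Efnb3 lay under 1 CPM in both groups on average.

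Epha2, a receptor tyrosine kinase for ephrin-A ligands, was the Eph receptor that rose. It lies on chromosome 4 (141301240 to 141329384, plus strand). It had 34.9, 32.1, 33.9, 27.1 and 33.4 CPM in Areg libraries, against 28.1, 27.3, 25.4, 28.8 and 23.1 CPM in controls. Areg library 4 lay within the control range, and the other 4 Areg libraries lay above all controls. Epha2 rose 1.22-fold (log2 fold change 0.28, SE 0.08, edgeR adjusted p = 0.0186). The call was lost without Areg replicate 1 (adjusted p = 0.0514) or 5 (adjusted p = 0.0515), with the transcript length offset (adjusted p = 0.0574) and on the TPM scales (limma adjusted p = 0.145 and 0.149), and it held without controls 3 and 4.

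Ephb4, the Efnb2 receptor and the most abundant Eph gene, had 77.9, 78.8, 80.1, 77.8 and 77.8 CPM in Areg libraries, against 85.4, 75.6, 81.7, 79.8 and 77.3 CPM in controls. The Areg range lay within the control range, and the log2 fold change was -0.03 (95% interval -0.13 to 0.08, edgeR adjusted p = 0.750). Epha4 had 20.7 to 22.4 CPM with Areg and 16.5 to 21.9 CPM in controls (log2 fold change 0.16, edgeR adjusted p = 0.172). Epha3, Epha5, Epha7, Ephb2 and Ephb3 had adjusted p of at least 0.279.

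The promoters of Epha2, the receptor that rose, and Efnb1, the ephrin that fell, are shown because they hold letters searched for, in capitals (GGAATG or its reverse complement in Epha2, GTGGGCG in Efnb1). Sema4b (GTGGGCG) and Plxnb1 (CCGGAAG and GGAATG, on either strand) were the other called members with such letters and are not shown. The RefSeq windows on GRCm38.p6 are chr4:141300971-141301270 for Epha2 and chrX:99135811-99136110 for Efnb1, both on the plus strand.
Epha2: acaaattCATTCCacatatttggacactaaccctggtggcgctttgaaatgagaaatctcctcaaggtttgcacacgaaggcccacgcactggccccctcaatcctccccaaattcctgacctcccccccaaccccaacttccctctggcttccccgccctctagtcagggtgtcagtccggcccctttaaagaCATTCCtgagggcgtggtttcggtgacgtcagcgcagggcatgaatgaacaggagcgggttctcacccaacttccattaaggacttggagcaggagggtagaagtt
Efnb1: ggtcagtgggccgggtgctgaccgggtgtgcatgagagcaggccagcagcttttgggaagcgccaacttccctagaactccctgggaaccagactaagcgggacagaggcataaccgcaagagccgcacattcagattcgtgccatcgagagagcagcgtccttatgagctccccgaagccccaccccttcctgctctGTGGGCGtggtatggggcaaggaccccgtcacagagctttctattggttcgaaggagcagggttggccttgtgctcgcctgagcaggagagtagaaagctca
Of the 11 called members 9 are in the RefSeq table, and Sema6a and Plxna1 are not. The windows of called members that rose (Sema3a, Sema3d, Sema6d and Epha2) had a GC content of 41.3% to 54.7%, and those of members that fell had 59.7% to 74.7%. Over all tested genes in the table the medians were 59.3% for genes called higher and 62.7% for genes called lower. No called member's window holds the AP-1 letters, which says only that these letters are not in the windows searched.

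Transcript GC content moved with the fold changes of the whole table, and several member calls moved with it. The median log2 fold change was 0.14 over the 611 tested genes with under 40% GC in their transcripts and -0.19 over the 773 genes with 58% to 60% GC. Without controls 3 and 4 these medians were 0.04 and -0.09. The 6 members called lower had a median transcript GC content of 57.0%, the 5 called higher 48.4%, and all tested genes 50.2%. A smooth curve in length and GC content was fitted in each library over all tested genes and removed. For Plxna1, Plxnb1, Plxnb2, Efnb1 and Sema4b this trend alone was worth -0.22 to -0.17 on the log2 scale, and for Sema3a, Sema3d, Sema6a, Sema6d, Epha2 and Nrp1 it was worth 0.10, 0.14, -0.03, -0.01, -0.17 and -0.01.

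**Figure D3:**
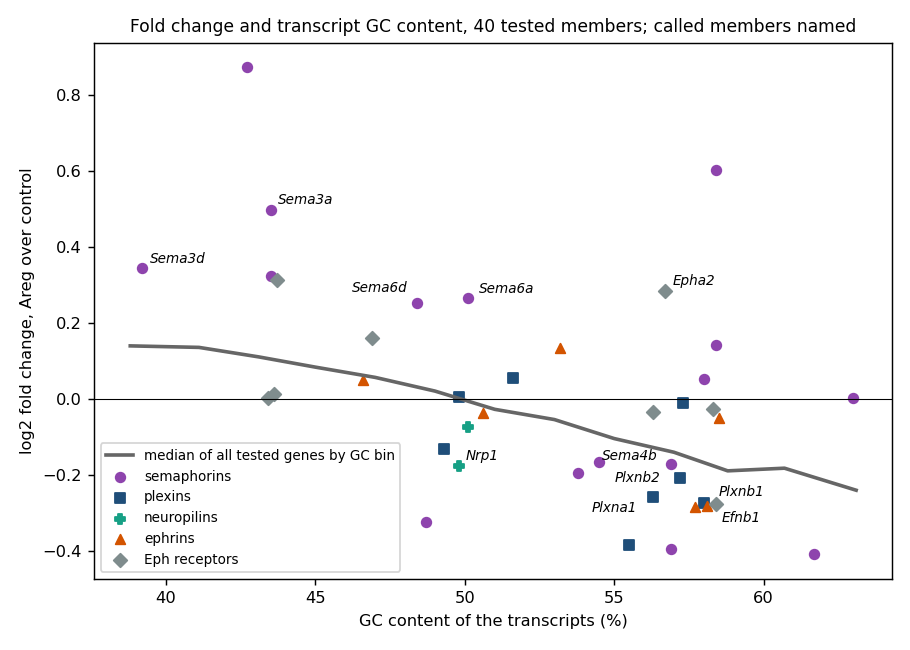
Log2 fold change of the 40 tested members against the GC content of their transcripts, with the median of all tested genes by GC bin as a grey line that runs from 0.14 at the low to -0.24 at the high end. Plxna1, Plxnb1, Plxnb2, Efnb1 and Sema4b lie between 56% and 59% GC below the line, with Sema4b the closest to it. Nrp1 also lies below the line, and Sema3a, Sema3d, Sema6d, Sema6a and Epha2 lie above it.

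With the trend removed, Sema3a, Sema3d, Sema6a, Sema6d and Epha2 were called higher and Nrp1 was called lower, as without it. Their log2 fold changes were 0.41, 0.23, 0.30, 0.26, 0.45 and -0.16 (edgeR adjusted p at most 0.0198). The falls of Plxna1, Plxnb1, Plxnb2 and Efnb1 shrank to -0.07, -0.06, -0.01 and -0.08 and were no longer called (adjusted p = 0.185 to 0.937), and Sema4b stood at 0.003. Sema3f, Sema4c, Sema6b, Sema7a, Plxnd1 and Ephb4 became called as higher, with log2 fold changes of 0.31, 0.25, 0.28, 0.79, 0.17 and 0.18. With controls 3 and 4 also left out, the same 12 members were called, together with Plxnc1 as lower (-0.13, adjusted p = 0.0270). Whether the trend is a property of the libraries or of the response to Areg was not tested, since it differs between the groups.

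**Figure D4:**
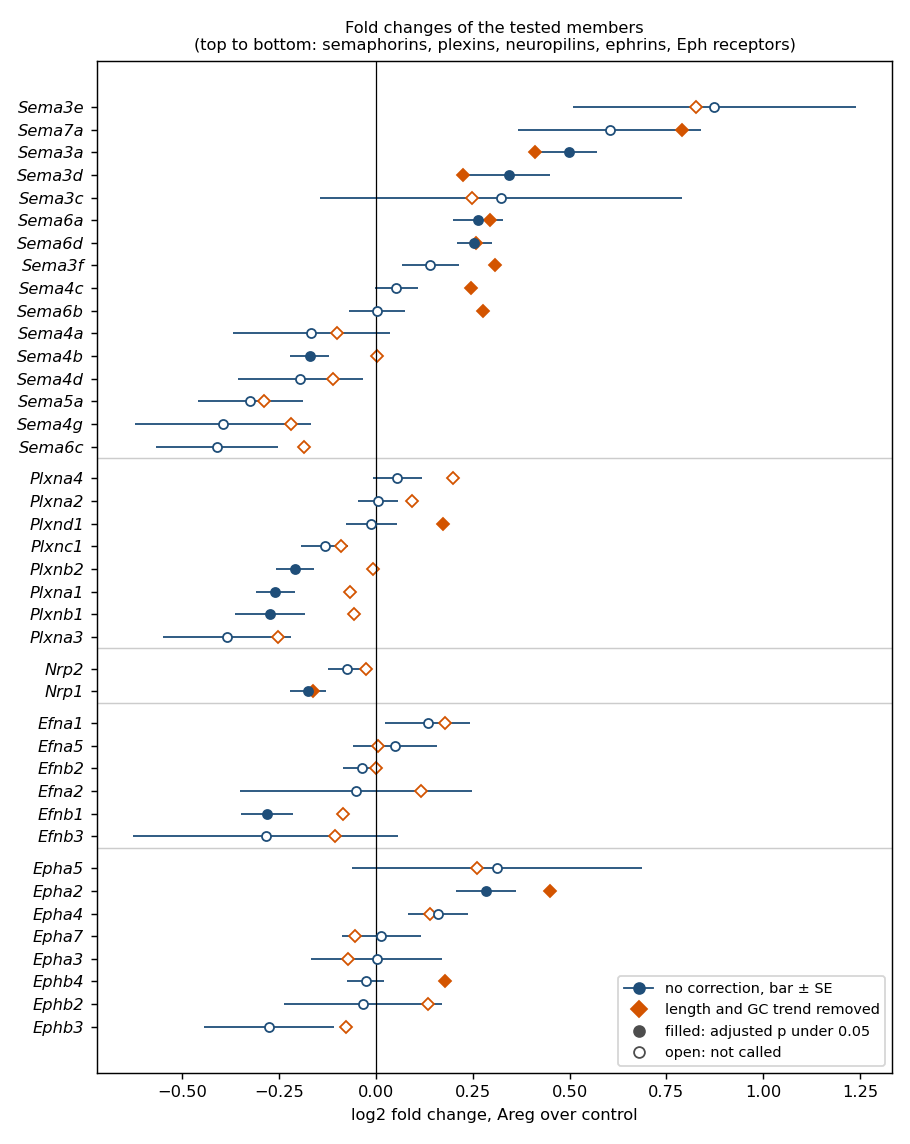
Log2 fold change of each tested member, Areg over control, without correction (blue circles with SE) and with the length and GC trend removed (orange diamonds), filled where the adjusted p is under 0.05. Sema3a, Sema3d, Sema6a, Sema6d, Epha2 and Nrp1 are filled under both, whereas Plxna1, Plxnb1, Plxnb2, Efnb1 and Sema4b are filled only without correction, and Sema4b lies at 0.003 with the trend removed.

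Genes that act beside or downstream of these ligands and receptors were counted from lists chosen with earlier results known, against the same background of 16.7% called. Among 29 tested partners and effectors of semaphorin signalling, 24.1% were called, 3 higher and 4 lower, and 22 were not, with a median log2 fold change of -0.09 that became 0.04 with the length and GC trend removed (4 higher, 3 lower). Mical2, an actin-oxidizing enzyme of a family that acts downstream of plexins, averaged 64.2 ± 3.36 CPM with Areg and 42.9 ± 3.28 CPM in controls. It was higher with Areg (log2 fold change 0.58, edgeR adjusted p = 1.83e-05), also with the trend removed (0.67). Fyn, a Src-family kinase gene, fell by 0.23 on the log2 scale without the correction and by 0.24 with it. Arhgef11, whose product binds B-type plexins, fell by 0.20 and was not called with the trend removed (-0.10, edgeR adjusted p = 0.0618).

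Among 27 tested partners and effectors of Eph and ephrin signalling, 29.6% were called, 3 higher and 5 lower, against 2 higher and 1 lower with the trend removed. The kinase gene Abl1, the lipid phosphatase gene Inppl1 and the Rap regulator gene Sipa1l1 fell by 0.35, 0.23 and 0.30 on the log2 scale (edgeR adjusted p at most 0.00988). With the trend removed Abl1 was called at -0.18, while Inppl1 (-0.05, edgeR adjusted p = 0.374) and Sipa1l1 (-0.21, edgeR adjusted p = 0.0546) were not.

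Among 14 tested genes of other axon guidance families, among them netrin and Robo genes, 50% were called, 1 higher and 6 lower, against 1 higher and 2 lower with the trend removed. The other 12 genes of that list, among them Slit1, Slit2 and Slit3, were not tested. Ntn1 (netrin-1), its receptor gene Unc5b and the Robo partner Srgap2 fell by 0.30, 0.23 and 0.21 on the log2 scale. With the trend removed Srgap2 was called at -0.18, while Ntn1 (-0.07, edgeR adjusted p = 0.232) and Unc5b (edgeR adjusted p = 0.999) were not. Of the 8 vascular endothelial growth factors and receptors linked to neuropilins, 0 were higher and 2 were lower, against 2 higher and 1 lower with the trend removed. At an unadjusted edgeR p under 0.05 there were 6 of these 8 in either direction, as there were 13 of 29, 12 of 27 and 8 of 14 in the lists before and 31.4% of all tested genes. The 2 that fell were Vegfb and Vegfd, with log2 fold changes of -0.35 and -0.50, of which Vegfd was also called with the trend removed (-0.59) and Vegfb was not (-0.15, edgeR adjusted p = 0.121).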

How the data were processed

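Poly-A RNA of 5 Areg and 5 control libraries was sequenced. The submitters' processing notes name bcl2fastq 2.19, kallisto 0.44.0, DESeq2 and GRCm38.p6, with no role or order, and no source used here gives the transcript set or the strand setting. Per the file headers, the deposited tables give for each transcript an estimated count, a TPM value, a length and an effective length. Of 118489 transcripts, 116816 matched GENCODE M21 and were summed to 36047 genes, and the 1673 others held 0.736% to 0.778% of the counts and were left out. Estimated counts were rounded to whole numbers, filtered (minimum count 10), scaled by TMM and tested with edgeR 4.0.16 in R 4.3.3. Since the strand setting is unknown, a gene and an antisense partner may share reads. Counting by estimation can also shift reads between forms or related genes.

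The 16 members described in full are the 11 called ones and the 2 most abundant members of each class. Partner genes were the 3 called genes with the smallest p in each list. Members and lists were chosen with earlier results of these data known. Alternatives used limma 3.58.1, DESeq2 1.42.0, TPM with a pseudocount of 1 or 0.1, and a smooth trend in length and GC content (mgcv 1.9.3). On simulated counts for 13228 genes with 200 changed, over 5 runs, the test recovered 42.4%, 76.8%, 89.2% and 95.2% of 1.25-, 1.5-, 2- and 3-fold changes, and 7.27% of its calls were false. The simulated counts held no length and GC trend and no control libraries that stood apart, so these rates may not hold for the data. Within a group, counts differed by more than sampling noise (chi-square over its degrees of freedom was 3.77 to 49.7). Technical variation can also give such spread, so it does not show that the libraries are independent. Each library was counted as 1 replicate.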

Additional observations from a re-analysis of the deposited data

Results flagged for a closer look

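In 42 groups of 5 libraries, made of members and class sums, a library far from the others was looked for, and 3 groups had one. Chance gives about 1 in 20 groups. Sema6a had its highest Areg value, 207.7 CPM, in Areg library 4, far above the other 4 Areg libraries. Sema6a also had its highest control value, 185.3 CPM, in control library 4, far above the other 4 controls. The summed level of the Eph receptors was lowest, at 58.29 TPM, in Areg library 4. The cause was not tested.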

How the results depend on the processing

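Sema3a and Sema6d were called under all 24 alternatives. With the length and GC trend removed, 1124 genes were higher and 695 lower, and 11 members were higher and 1 lower; with controls 3 and 4 also left out there were 735 genes lower, and 11 members higher and 2 lower. Without a filter 7 of 52 tested members were called, 3 of them lower, beside 9.07% of all 21875 tested genes. On log2(TPM + 1) and log2(TPM + 0.1), 840 and 845 genes were called (316 higher under each, 524 and 529 lower) and 5 members (2 higher, 3 lower). A transcript length offset gave 1161 genes (614 higher, 547 lower) and 7 members (3 higher). Leaving out 1 library gave 1364 to 2314 genes (686 to 1181 higher, 678 to 1150 lower) and 7 to 12 members (3 to 6 higher, 3 to 6 lower). The cause was not tested.

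Of the 40 tested members 15 turned sign under 1 or more alternatives, 4 of them among the 16 described in full and 11 among the others. The 4 were these. Plxnd1 was 0.007 without a filter, 0.053 and 0.054 on the TPM scales, 0.077 with the length offset, 0.173 with the trend removed, 0.092 without controls 3 and 4 and 0.210 with both, and -0.065 to 0.032 without 1 library (positive without control 3, control 4 or Areg replicate 5). Ephb4 was 0.178 with the trend removed, 0.130 with both and -0.044 to 0.002 without 1 library (positive without control 1). Efnb2 was 0.001 with the trend removed, and Sema4b was 0.003 with the trend removed and 0.003 with both.

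The labels do not say whether replicate numbers pair the libraries, and correlations between libraries do not settle it. Same-numbered libraries had correlations of -0.039 to 0.128 in their deviations. The value of 0.128, for Areg 4 with control 4, was the highest of all pairs. Not every library correlated best with its own number. With the replicate block 2357 genes (1208 higher, 1149 lower) and 11 members (6 higher, 5 lower) were called. Sema7a was gained (adjusted p = 0.0407) and Plxnb1 lost (adjusted p = 0.0551). The counts for partner and marker lists with the trend removed were added after seeing the data. Low members are limited by depth: 13 members were not tested.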
